A study of Mus musculus with 2 samples.

Results

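Genes named after sperm or testis were followed in fetal mouse lung, in tissue with and without a working copy of Foxj1, the forkhead transcription factor that switches on motile ciliogenesis. The set held genes whose name on the array begins with Spata, Spag, Tex, Odf, Akap, Ropn, Tsga, Tssk or Tcte followed by a digit. Spag6, Spag16, Spag17, Tcte1, Akap5 and Odf2 were left out by the rule. It covered 74 of 27740 gene names on the array and 131 of 41167 probes. Of the 74 genes, 60 (103 probes) were well above background in at least 1 lung. This flag is set by the scanner software, and such genes are called detected here.

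Each genotype was represented by the lobes of 1 male embryo at E16.5. The embryos were litter mates of hybrid Sv129/CD-1 background, 1 heterozygous and 1 homozygous for Foxj1lacZ. Titles call the tissue lung lobes and source names lung epithelium, and it is read here as lobes. The control therefore also carried 1 mutant allele, and no wild-type lung was on the array. The heterozygous RNA was labelled with Cy3 and the homozygous RNA with Cy5 on 1 shared array without a dye swap, so genotype, embryo and dye cannot be told apart. There was 1 lung per genotype, so no difference below has a replicate check and no p-value is given. In whole lobes, fewer cells of a type and less RNA per cell cannot be told apart either. Levels are log2 intensities, and every ratio is the log2 level of the homozygous minus that of the heterozygous lung. Errors (±) were given by the scanner software for its own log ratio, and they cover spot noise, not the spread between embryos or between probes.

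The sperm tail and the cilium of an airway cell share the axoneme, a cylinder of microtubule doublets moved by dynein arms and steadied by radial spokes. The sperm tail adds structures of its own, the outer dense fibres and the fibrous sheath, to which A-kinase anchoring proteins tie protein kinase A. A gene name that points to testis mostly records where a transcript was first found. Several of these proteins work in every dividing or secreting cell, others only in meiosis or spermiogenesis.

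Foxj1 itself stood at 9.53 in the heterozygous and 7.61 in the homozygous lung, a ratio of −1.92 ± 0.30. Whether its probe lies in the part removed by the lacZ allele was not settled, so this value does not check the genotype labels. The labelled tissue was borne out by lung genes, since Sftpc (surfactant protein C), Foxa2 and Nkx2-1 (listed as Titf1) were well above background in both lungs. Spots well above background made up 69.0% of the array for the heterozygous RNA and 75.6% for the homozygous RNA.

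Most sperm-associated genes had nearly the same level in both lungs, and 3 of the 60 detected were at least 2-fold lower in the homozygous lung. These were Ropn1l, Tsga2 and Akap14. None was 2-fold higher. This split of 3 lower and 0 higher was 1 and 0 when ratios were only centred on the array's median without loess (median centring). It was 3 and 5 from the log ratio that the scanner software deposited (the scanner ratio), and 3 and 3 from the series matrix, the processed intensities the authors deposited. Across the array, 1.88% of detected genes were 2-fold lower or more, against 5% of the set. From the scanner ratio these shares were 5.40% and 5%, and from the series matrix 5.39% and 5%. With median centring they were 1.43% and 1.67%, so the higher share of the set depends on the processing. As reported, genes 2-fold higher or more made up 0.578% of the array and 0% of the set. With 60 genes, a share of 5% rests on 3 names. The median ratio of the set was −0.01, and that of all 21262 detected genes was 0.00 to 2 decimals. Under median centring the set stood at 0.00035 and all genes at 0.22, with 50% of the set and 37.1% of all genes below 0, so the likeness of the medians depends on the normalization. Ratios below 0 were found for 32 of the 60 (53.3%, against 50.5% of all detected genes). Within 0.5 of 0 lay 53 of the 60 (88.3%, against 89.1%). The SD among the genes of the set was 0.34, and among all genes it was 0.37.

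**Figure D1:**
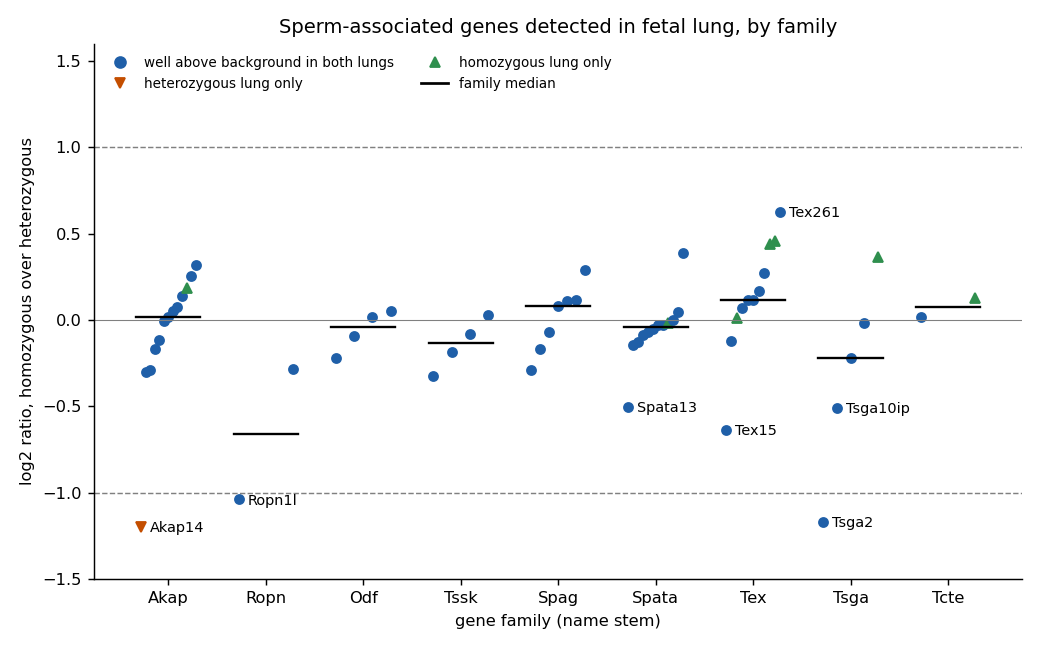
The log2 ratio (homozygous over heterozygous) of each detected gene is plotted by family, with the marker giving the lung in which the gene was well above background, a black bar for the family median and dashed lines at 2-fold. Ropn1l, Tsga2 and Akap14 lie below the lower line at −1.04, −1.17 and −1.20, and no gene reaches the upper one.

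The probes behind the lower genes are shown, since each of these ratios rests on 1 or 2 oligonucleotides of 60 bases. Those printed span an exon junction, because the mm8 positions of their ends lie farther apart than 60 bases. They are given 5′ to 3′ as deposited, and no base is in capitals.
Ropn1l, the probe at chr15:31385936-31387906, minus strand: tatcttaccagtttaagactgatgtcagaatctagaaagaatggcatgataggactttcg
Tsga2, chr17:31002119-31002280, minus strand: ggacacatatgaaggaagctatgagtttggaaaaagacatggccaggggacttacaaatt
Akap14, chrX:33582313-33583304, minus strand: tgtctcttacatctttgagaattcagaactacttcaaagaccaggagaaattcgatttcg

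Ropn1l, a ropporin-like protein with the docking domain that binds A-kinase anchoring proteins, stood at −1.04 ± 0.23, or 2.05-fold lower. Its junction probe read 8.94 in the heterozygous and 7.95 in the homozygous lung, a ratio of −0.99. The other probe, which lies in the same gene at chr15:31385814-31385873, read 10.80 and 9.72, a ratio of −1.09. Both probes were thus lower in the homozygous lung by close to the same amount, and the gene sits just past the 2-fold line. Ropn1l stood at −0.67 with median centring. Its relative Ropn1, ropporin of the sperm fibrous sheath, read 8.05 and 7.76, a ratio of −0.29 ± 0.22. The probes of the pair share at most 7 bases in a row. Whether the difference between these 2 genes exceeds the spread between embryos could not be tested.

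Tsga2 is the old name of Rsph1, a radial spoke head protein of motile axonemes, so its name places it in this set and its product in the cilium. Its probe read 9.13 in the heterozygous and 7.96 in the homozygous lung, a ratio of −1.17 ± 0.24 or 2.25-fold lower. The value was −0.92 with median centring and −1.33 from the scanner ratio. Akap14 encodes an anchoring protein found in the axoneme of airway cilia. It read 7.57 in the heterozygous lung and 6.37 in the homozygous lung, where it was not well above background. Its ratio is therefore read as a bound, at least 2.30-fold lower as processed here. The bound is taken against the higher of the gene's own reading and the lowest reading of any probe well above background in that lung. The gene's own reading was the higher, so bound and ratio have the same size. The bound is 1.20 on the log2 scale, and the scanner error of 0.40 belongs to the scanner ratio, not to this bound. Akap14 is the only gene of the set detected in the heterozygous lung alone, and being kept through that lung favours a ratio below 0. The ratio of Akap14 was −1.04 with no background correction and −2.88 from the scanner ratio, so the bound does not hold under every processing. With probes well above background in both channels, 2 of 52 genes (3.85%) were at least 2-fold lower, against 2.01% of all genes.

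Promoters of these genes were searched for motifs of the transcription factors that act in ciliogenesis. RefSeq promoters (GRCm38.p6, 250 bases before to 50 after a start) were at hand for Ropn1l and Akap14. They are printed 5′ to 3′ on the strand of the gene, with motif matches in capitals.
Ropn1l promoter, chr15:31453640-31453939, minus strand: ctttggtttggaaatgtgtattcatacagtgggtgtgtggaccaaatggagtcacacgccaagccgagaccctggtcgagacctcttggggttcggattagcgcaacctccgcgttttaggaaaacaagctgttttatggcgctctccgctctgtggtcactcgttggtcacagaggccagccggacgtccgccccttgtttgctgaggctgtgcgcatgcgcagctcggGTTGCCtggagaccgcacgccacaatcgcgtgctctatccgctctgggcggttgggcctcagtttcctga
Akap14 promoter, chrX:37168793-37169092, minus strand: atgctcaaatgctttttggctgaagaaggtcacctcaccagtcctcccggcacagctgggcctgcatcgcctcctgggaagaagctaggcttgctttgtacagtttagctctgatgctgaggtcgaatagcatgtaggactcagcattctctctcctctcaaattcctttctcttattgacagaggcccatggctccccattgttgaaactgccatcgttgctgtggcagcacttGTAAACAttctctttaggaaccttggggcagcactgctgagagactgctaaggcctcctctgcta

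The letters searched on both strands were GTTGCC, a hexamer of the X-box bound by Rfx factors, and TGTTTAC, a forkhead core. The Ropn1l promoter held the hexamer 20 bases before the start, and the Akap14 promoter held the reverse complement of the forkhead core 15 bases before it. Of 32851 promoters in the table, 12.5% held the hexamer and 3.65% the forkhead core. Among the 64 genes of the set with a promoter there, 9 (14.1%) held the hexamer, against 14.1% of all genes, and 2 (3.12%) the forkhead core, against 4.05%. The X-box palindrome, GTTGCC and GGCAAC with 2 bases between them, contains the hexamer on both strands. It was in 0 of the 64 and in 0.111% of all genes. Among other genes with the hexamer, Tsga14 (−0.02), Odf3 (−0.09) and Akap11 (0.02) had ratios near 0, while Tsga10ip was at −0.51. Akap6, with both motifs, was at −0.01. No promoter of Tsga2 was in the table.

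Among the A-kinase anchoring proteins, 13 of 14 genes were detected and Akap14 was the only one 2-fold apart. This 1 lower gene is a share of 7.69%, against 1.88% of all detected genes, and it rests on 1 name. The family median was 0.02, and it was 0.37 with median centring and −0.11 with the brightest probe of each gene, so it has no settled direction. Akap12, a scaffold under the plasma membrane, read 14.35 in the heterozygous and 14.04 in the homozygous lung, a ratio of −0.30 ± 0.21 that turned to 0.43 with median centring. Akap9, the large scaffold of the Golgi and centrosome, had probes at −0.50, −0.29 and 0.12. Its gene value was −0.29 ± 0.21, or 0.27 with median centring. At the other end stood Akap1, which anchors the kinase to mitochondria, at 0.32 ± 0.21, with 3 probes from 0.13 to 0.40. Akap2, listed by RefSeq as Pakap, was at 0.26 ± 0.21, and its probes ran from −0.22 to 0.37. The nuclear anchors Akap8 and Akap8l lay at 0.14 and 0.05. Akap4, the main fibrous sheath protein of the sperm tail, was well above background in the homozygous lung only, with a bound of 1.07-fold. Its ratio of 0.19 ± 0.47 was −0.14 with median centring and 1.07 from the scanner ratio, to which the error belongs. Akap3, its partner in the sheath, was not well above background in either lung.

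The kinase that these proteins anchor was near even between the lungs. Of 14 genes listed for protein kinase A, adenylyl cyclases, phosphodiesterases and a phosphatase of the pathway, 13 were detected and 0 were 2-fold apart, with a median of −0.02. Since 1.88% of all detected genes were 2-fold lower and 0.578% higher, a count of 0 among 13 is no trait of this list. The regulatory subunit Prkar2b was lowest at −0.40 ± 0.21 and the catalytic subunit Prkacb highest at 0.22 ± 0.23.

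Outer dense fibre genes and testis kinases had small differences throughout. Odf1, a main component of the dense fibres, was not well above background in either lung. The other dense fibre names were detected in both. Odf4 stood at −0.22 ± 0.22, Odf3 at −0.09 ± 0.21, Odf2l, a protein of the centriole, at 0.02 ± 0.20 and Odf3l1 at 0.05 ± 0.30. The family median was −0.04, or 0.03 with median centring. Of the testis-specific serine kinases, which act in late sperm development, Tssk2 and Tssk3 were not detected. Tssk5 read 7.96 in the heterozygous and 7.63 in the homozygous lung, a ratio of −0.32 ± 0.22. Tssk6 (−0.19 ± 0.21), Tssk4 (−0.08 ± 0.23) and Tssk1 (0.03 ± 0.24) lay closer to 0 than their scanner errors. The kinase median was −0.13, and it was below 0 under all 9 alternatives.

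All 7 Spag genes of the set were detected in both lungs, none differed by 2-fold and their median was 0.08 (0.26 with median centring, −0.07 with the brightest probe). Over the array, 1.88% of detected genes were 2-fold lower and 0.578% higher, so 0 among 7 is no trait of this family. Spag1, an assembly factor of dynein arms, read 8.05 in the heterozygous and 7.76 in the homozygous lung, a ratio of −0.29 ± 0.22. Spag7 was at −0.17 ± 0.21, or 0.44 with median centring. Spag5, the spindle protein astrin of dividing cells, was highest at 0.29 ± 0.32. Its value was 0.77 from the scanner ratio. Spag9, a scaffold of kinase signalling and motor transport, had 6 probes between −0.25 and 0.25. The nuclear envelope genes Spag4 (0.12) and Spag4l, now Sun5 (0.08), and the defensin-like Spag11 (−0.07) were near 0.

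These values differ from those of the Spag genes the rule leaves out. The central pair gene Spag6 (Spag6l in RefSeq) read 8.49 in the heterozygous and 7.04 in the homozygous lung, at −1.45 ± 0.29 from 1 kept probe. Spag17 (−0.84 ± 0.32) and Spag16 (−0.57 ± 0.32), also of the central pair, had 2 kept probes each, all below 0. Odf2 was at 0.12 ± 0.21 and Tcte1 at 0.36 ± 0.31. Akap5, carried on the array under the clone name 3526401B18Rik, read 13.99 and 12.94, a ratio of −1.05 ± 0.22. With 1 lung per genotype, the difference between these genes and the set was not tested.

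**Figure D2:**
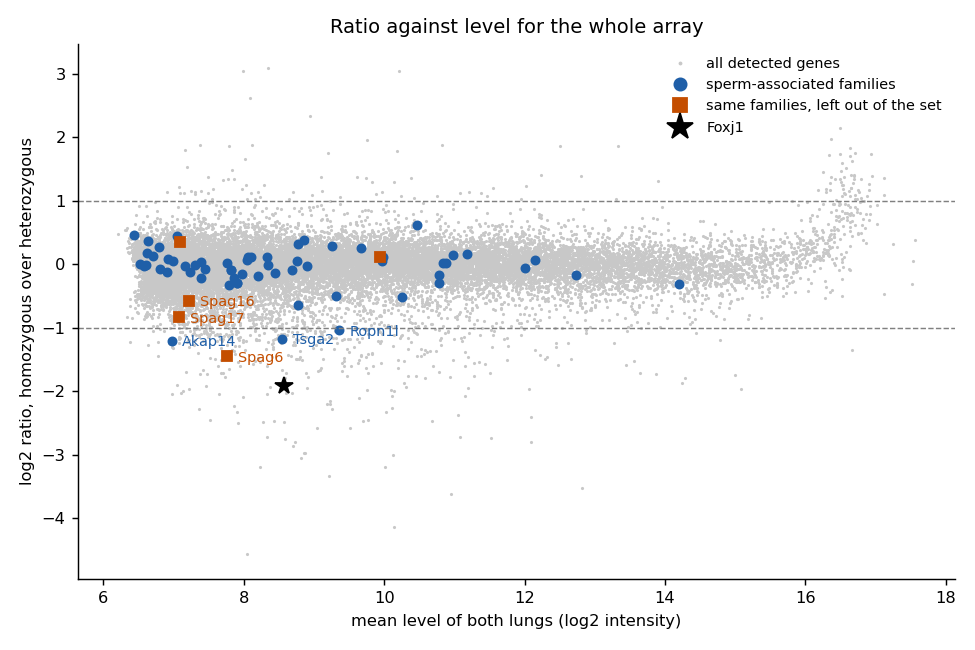
Each detected gene is plotted by its mean level in both lungs (log2 intensity) and its log2 ratio (homozygous over heterozygous), with the 60 genes of the set in blue, 5 left-out genes of the same families in orange, Foxj1 as a star and dashed lines at 2-fold. The set follows the grey band of all genes except for Ropn1l, Tsga2 and Akap14, while Spag6 lies lower at −1.45.

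The Spata genes were the largest family, with 12 of 17 detected, a median of −0.04 (0.0018 from the scanner ratio) and 0 genes 2-fold apart. With array shares of 1.88% lower and 0.578% higher, a count of 0 among 12 is no trait of this family either. Spata13 was lowest. It read 9.56 in the heterozygous and 9.06 in the homozygous lung, a ratio of −0.50 ± 0.21 that was −0.10 with median centring. Spata1 followed at −0.15, with its probes at −0.36 and 0.07. Spata2, which couples the deubiquitinase Cyld to linear ubiquitin signalling, was highest at 0.39 ± 0.22, from probes at 0.25 and 0.53. Spata6, needed to join sperm head and tail, had a gene value of 0.05. Of its 3 probes, those at 0.05 and 0.10 differed from a further probe at −0.58, at mm8 chr4:111277507-111277566, which read 7.53 in the heterozygous and 6.95 in the homozygous lung. Spata17 (−0.03), the retinal ciliary protein Spata7 (0.00) and the AAA ATPase Spata5 (−0.05) were near even. Spata16, an acrosome gene, was detected in the homozygous lung only, with no bound above 1. Spata3, Spata4, Spata5l1, Spata18 and Spata19 were not well above background in either lung.

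Among the Tex genes, 11 of 15 were detected and the median was 0.12. Of the 11, 2 had ratios below 0, against 50.5% of all detected genes. Tex11, Tex14 and Tex22 were kept through the homozygous lung alone, which favours a ratio above 0, so this count is a description only. The median was above 0 under all 9 alternatives, from 0.07 with the brightest probe to 0.25 with median centring. Tex261 was the highest gene of the set. Its 3 probes stood at 0.45, 0.63 and 0.63, a gene value of 0.63 ± 0.21, and levels were 10.16 in the heterozygous and 10.78 in the homozygous lung. With median centring it reached 0.99, a setting that raised the median of all genes by 0.22. Tex264 (0.07), a receptor for autophagy of the endoplasmic reticulum, Tex10 (0.12), Tex9 (0.12) and Tex2 (0.17) were close to even.

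Tex genes of meiosis lay on both sides of 0. Tex15, a gene of germ cell transposon silencing and meiosis, was the lowest of the family at −0.64 ± 0.22, with 9.09 in the heterozygous and 8.45 in the homozygous lung. It was at −0.34 with median centring. Tex11, X-linked and active in meiotic recombination, stood at 0.46 ± 0.83, where the error belongs to a scanner ratio of 2.04. It was detected in the homozygous lung only, with a bound of 1.02-fold. Tex14, of the bridges between germ cells, was also detected in the homozygous lung only, with a bound of 1.36-fold (0.44 on the log2 scale). The scanner software gave an error of 0.32 for its own log ratio of Tex14. Tex12, of the synaptonemal complex, was at 0.27 ± 0.55, or 1.25 from the scanner ratio. Tex21 was at −0.12 and Tex22, in the homozygous lung only, had no bound above 1. Tex13, Tex16, Tex19 and Tex101 were not detected.

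Of 6 Tsga genes 5 were detected, and both Tcte genes were. Besides Tsga2, Tsga10ip read 10.51 in the heterozygous and 10.0005 in the homozygous lung, a ratio of −0.51 ± 0.21 that was −0.01 with median centring. Tsga10, a protein of the sperm tail and centrosome, had 3 probes, all below 0, from −0.39 to −0.10. Tsga14 is now Cep41, which serves tubulin glutamylation in cilia, and its 4 probes lay between −0.08 and 0.09. Tsga13 was detected in the homozygous lung only, with a bound of 1.14-fold, and Tsga8 in neither. The ratio of Tsga13 was 0.37 ± 0.54, where the error belongs to a scanner ratio of 1.64. Tcte3, a dynein light chain, was at 0.02 ± 0.23, and Tcte2, in the homozygous lung only, had a bound of 1.09-fold. The ratio of Tcte2 was 0.13 ± 0.44, or −0.18 with median centring.

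Different probes of a gene bounded how finely these ratios can be read. Of the 60 genes, 28 had several kept probes, and in 15 of them the probes had opposite signs. The pooled SD between probes of a gene was 0.21 in the set and 0.26 over all 7106 such genes on the array, and repeated spots of a probe had a median SD of 0.05. Of the genes with several kept probes, Ropn1l alone had all of them below −0.9. Apart from Ropn1l, the 2-fold lower genes had 1 probe each.

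**Figure D3:**
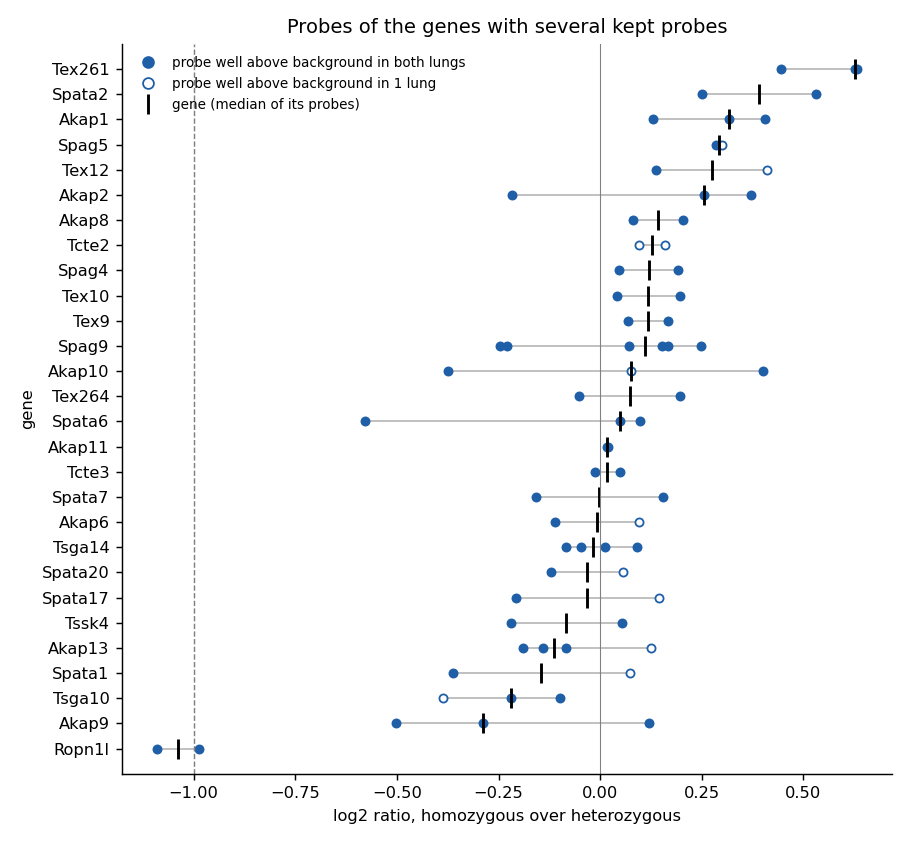
For the 28 genes with several kept probes, the log2 ratio (homozygous over heterozygous) of each probe is plotted as a point, filled where the probe was well above background in both lungs, with a bar for the gene value, a solid line at 0 and a dashed line at 2-fold lower. Both probes of Ropn1l lie near −1, at −1.09 and −0.99, and the probes of Spata6 and Akap10 are spread over both sides of 0.

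Detection was close to that over the array, with 81.1% of the set detected against 76.6% of all gene names. Any 1 kept probe makes a gene detected, and the difference was not tested. By probe, 103 of 131 were kept in the set and 31257 of 41167 over the array. In both lungs, 52 genes were detected, 7 in the homozygous lung only and 1 in the heterozygous lung only. Over all 21262 detected genes, these counts were 19270, 1715 and 277, so detection in the homozygous lung alone was the more frequent there too. Of the 6 X-linked genes, 3 were detected (Akap4, Akap14 and Tex11), each in 1 lung only, while 68.5% of all X-linked names were. Among the 14 not detected were genes of late sperm development such as Akap3, Odf1 and Tssk2. Others from the same families, such as Akap4, Odf4, Tssk1, Tssk4, Tssk5 and Tssk6, were detected, so such genes stood on both sides.

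Genes that define germ cells were checked in the same lungs. Of 28 markers, 21 (75%) were detected, close to the 76.6% of all gene names. Of these 21, 16 were detected in the heterozygous and 19 in the homozygous lung, and the median ratio was 0.0045. Their summed linear intensity was 3460 in the heterozygous and 3868 in the homozygous lung. The sum over all detected genes was also higher in the homozygous lung (8.07e+07 and 8.90e+07). Dazl, Sycp2, Acrv1, Izumo1, Catsper4, Piwil1 and Piwil2 were not well above background in either. Of the 21 detected, none was 2-fold lower, against 1.88% of all detected genes, so 0 among 21 is no trait of the list. The germ cell helicase Ddx4 was the only marker 2-fold higher, at least 2.09-fold as processed here, against 0.578% of all detected genes. It rests on 1 probe, detected in the homozygous lung only. Being kept through that lung alone favours a ratio above 0, so this call is a description only.

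Markers of motile ciliated cells were lower in the same lung as Ropn1l, Tsga2 and Akap14. Of 24 markers, 22 were detected in both lungs, 15 were at least 2-fold lower and 0 higher, with a median of −1.22. Mns1, at 0.34, was the only marker above 0. Their summed linear intensity was 42685 in the heterozygous and 14298 in the homozygous lung. Tsga2 counts there under its present name Rsph1. Sperm tail genes outside the set, 29 of them with the 6 left-out genes included, had a median of −0.40. Of 26 detected, 8 (30.8%) were at least 2-fold lower and 0 higher, against the same array shares of 1.88% and 0.578%. The lowest was Meig1 (−3.01 ± 0.36), which is required for sperm tail assembly. The part of ciliated cell number in the lower values of Ropn1l, Tsga2 and Akap14 was not tested.

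**Figure D4:**
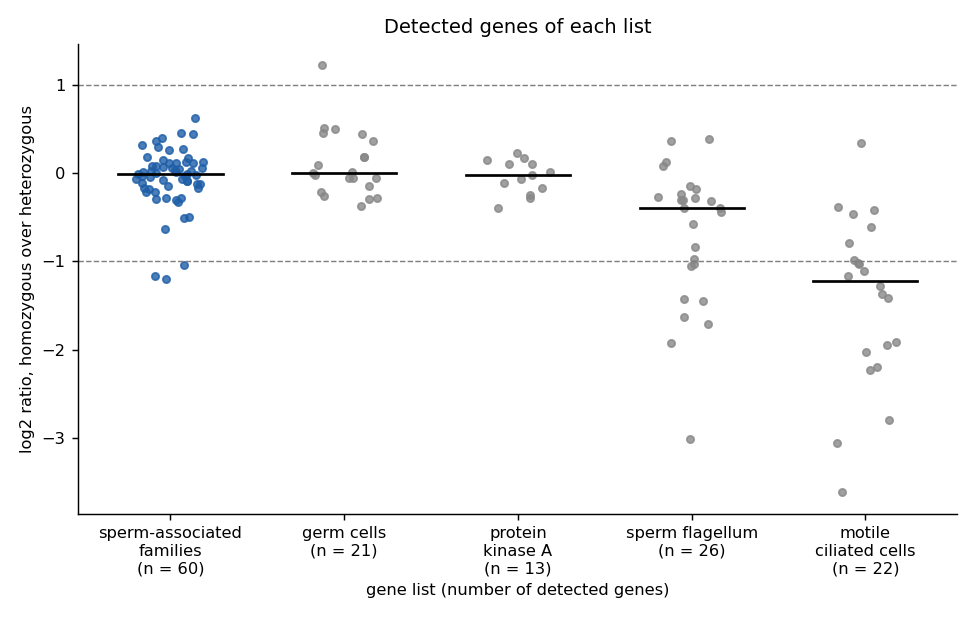
The log2 ratio (homozygous over heterozygous) of each detected gene is plotted for the set and 4 comparison lists, with a bar for the median and dashed lines at 2-fold. The medians of the set, the germ cell markers and the protein kinase A genes lie near 0 (−0.01, 0.0045 and −0.02), and those of the sperm tail genes and ciliated cell markers at −0.40 and −1.22.

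Calls of higher genes moved with the processing. From the scanner ratio, Akap4 (1.07), Tex11 (2.04), Tex12 (1.25), Tex14 (1.17) and Tsga13 (1.64) were at least 2-fold higher. Of these 5, Akap4, Tex11, Tex14 and Tsga13 were well above background in the homozygous lung only. Across the array, the split of lower to higher genes was 400 to 123 as reported, 1149 to 595 with that ratio, 775 to 224 with a background offset of 0 and 305 to 722 with median centring. In the set, these splits were 3 to 0, 3 to 5, 3 to 1 and 1 to 0. Under median centring, 16 of the 60 genes had the opposite sign, and Akap14 alone remained 2-fold lower.

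**Figure D5:**
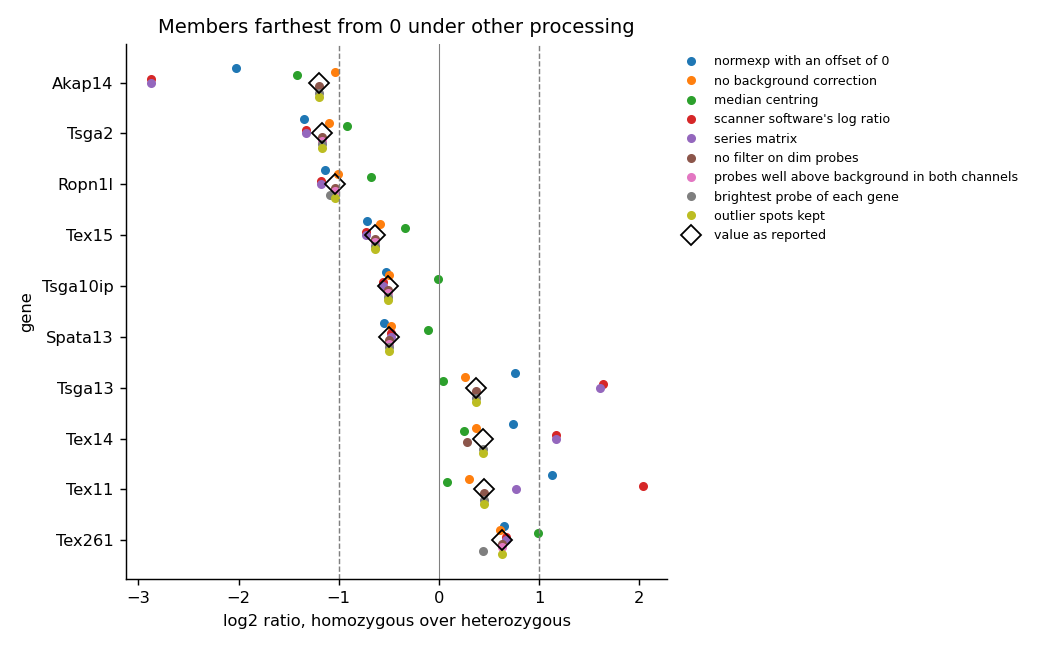
The log2 ratio (homozygous over heterozygous) of selected genes far from 0 is plotted as reported (open diamond) and under each alternative processing (coloured points). Dashed lines are at 2-fold. Spata2 (0.39) is not shown, though it lies farther from 0 than Tsga13 (0.37). Akap14, Tsga2 and Ropn1l are below 0 under every alternative that gives them a value, while Tsga13 and Tex14 cross the upper line with the scanner ratio and the series matrix, and Tex11 with the scanner ratio and a background offset of 0.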

How the data were processed

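Per the file headers, Agilent Feature Extraction deposited the mean spot intensity and local background of each channel on a linear scale, and a processed intensity after background subtraction, detrending and dye normalization. Version 9.5.3.1 is given in the submitters' processing notes. The deposited log ratio is log10 of red over green, per the file headers, and its deposited p-value was not used. Both scanner files are identical and count as 1 array. The authors deposited a series matrix too, whose values are processed intensities of the sample's channel times 1.68, floored at 15. Medians were 139.8 (heterozygous) and 138.8 (homozygous). Scale and direction were found by comparison (SD of the log2 factor 0.024 and 0.017), no centring was found, and the reason for the factor is unknown.

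Mean signals were corrected by normexp with an offset of 50, which pulls dim ratios towards 0, and normalized by loess with control spots at weight 0 (limma 3.58.1 in R 4.3.3). Further steps used Python 3.11.15, numpy 2.4.6, pandas 2.3.3 and matplotlib 3.10.9. After 169 outlier spots were left out (0 were saturated), spots were averaged by probe. Kept probes had more than a 0.5 share of spots well above background in either channel, and their median is the gene value. Gene levels are the mean level of both lungs minus or plus 0.5 of the ratio. The array number, 1, limits the precision. The steps were tested on simulated data in which only bright genes were changed, by more than 2-fold. Changes in dim genes or close to 2-fold were not covered.

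Genes were grouped by their name on the array. RefSeq (GRCm38.p6) gave a symbol for all 74, and for 8 it was another one. Named are genes at least 2-fold apart, the 2 lowest and 2 highest of each family, families of up to 6 detected genes, bounds of at least 1.5-fold, probes of opposite sign more than 1 apart, the left-out genes and Foxj1. Other genes were named after their values were seen. The members and lists were chosen with earlier results of these data known. Alternatives changed the background correction, normalization, signal, dim-probe filter, probe summary and outlier spots.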

Additional observations from a re-analysis of the deposited data

How the results depend on the processing

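The 9 alternatives gave 293 values for genes of the set named by rule. Left-out genes, Foxj1 and genes named after their values were seen are not counted. Of the 293, 267 kept their side of 2-fold and, where below it, moved by less than the pooled SD between probes of a gene. Another 20 moved by more, 4 were newly and 2 no longer past 2-fold. The 4 belonged to Tex11 and Tsga13. Outside the count, Akap4 and Tex14 were newly past 2-fold under 2 alternatives each and Tex12 under 1. Genes past 2-fold as reported changed sign in 0 of their values, while genes nearer to 0 did change sign, among them Akap12 (0.43), Spag7 (0.44) and Tcte2 (−0.18) with median centring and Akap2 (−0.22) with the brightest probe. The median of the set was 0.0416 from the scanner ratio, 0.0414 from the series matrix, −0.0708 with probes well above background in both channels and −0.0773 with the brightest probe. The count of genes at least 2-fold lower was 1 with median centring, which took Ropn1l to −0.67 and Tsga2 to −0.92. The count at least 2-fold higher was 1 at a background offset of 0, 5 from the scanner ratio and 3 from the series matrix, against 0 as reported. The cause was not tested. A filter for both channels gives Akap14 and the 7 genes of the homozygous lung no value, as they have no probe left. No paired analysis was possible because each genotype has 1 lung and no test was run. Signal near background limits the genes detected in 1 lung.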
